A study of Mus musculus with 4 samples.

Results

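The respiratory chain subunit genes are the nuclear genes of the 5 complexes of oxidative phosphorylation. They were taken here as the protein-coding genes whose symbol starts with 1 of 13 stems (Ndufa, Ndufb, Ndufc, Ndufs, Ndufv, Sdh, Uqcr, Cox4 to Cox8 and Atp5), which gave 100 of the 21631 protein-coding genes on the autosomes and X in RefSeq (GRCm38). Of these, 77 encode subunits of complexes I to V that most tissues express: 37 of complex I, 4 of complex II, 8 of complex III, 11 of complex IV and 17 of complex V. Another 7 encode forms of complex IV subunits found mainly in muscle, lung or testis. The stems also take in 12 assembly factors (Ndufaf and Sdhaf genes), which help to build complexes I and II without being part of them, and 4 others: Ndufb4b and Ndufb4c, 2 copies of Ndufb4, Ndufa4l2, a relative of Ndufa4, and Cox7a2l, which helps to join complexes III and IV. Ndufa4 keeps its complex I name but is counted here with complex IV.

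Oxidative phosphorylation takes electrons from NADH through complex I and from succinate through complex II, passes them by way of complex III to complex IV, which hands them to oxygen, and uses the proton gradient built on the way to drive complex V, the ATP synthase. A few subunits are encoded by mitochondrial DNA, but most come from genes scattered over the nuclear chromosomes, whose products must be made in matching amounts. Promoters of such genes are known for sites of the transcription factors NRF1, GABP (an ETS factor also called NRF2), YY1 and SP1, and they are often CpG rich. Germ cells depend on mitochondria that pass through the oocyte to the next generation.

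The study ran ATAC-seq, which marks accessible DNA by letting a transposase cut it, on cells of C57BL/6J female fetuses at E14.5, labelled as ovarian cells. Beads carrying an antibody to SSEA1, which early germ cells display on their surface, served to pull out the germ cells, at roughly 10000 cells a library. There were 2 Gata2WT and 2 Gata2cKO samples; the cKO embryos lack Gata2, a GATA-binding transcription factor, where Prdm1-Cre, active in the germ line from its founding, has removed the floxed gene. The fathers were Gata2flox/+ with Prdm1-Cre and the mothers Gata2flox/flox, so every embryo, Gata2WT included, had a floxed allele from its mother; the labels do not say which of the remaining genotypes were called Gata2WT or how many embryos went into a library. The data are 1 combined MACS2 peak list per genotype, with no value per sample, so replicate spread is unknown and genotypes were not tested against each other. Ranges in brackets after a share are its 95% Wilson interval, for counting error alone.

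There were 49394 peaks for Gata2WT and 44139 for Gata2cKO. The genome background, read from the peaks' own values, was 2.19 fragments in Gata2WT and 2.01 in Gata2cKO. At Gata2 itself, a weak gene-end peak was in the Gata2WT list alone (−log10 q 4.27), and in all 2 peaks lay in or within 1 kb of the gene in Gata2WT and 1 in Gata2cKO, so these lists give no clear check of the deletion. Both lists held a gene-end peak for 11 of 12 germ cell markers, all but Nanos3. The same held for 7 of 10 markers of supporting cells, 3 of 5 of interstitial cells, 3 of 4 of endothelium and 1 of 6 of blood cells. Over all protein-coding genes this share was 62.8%, against 70% of supporting cell, 60% of interstitial and 75% of endothelial markers. The median −log10 q of all gene-end peaks that each list held at these markers was 29.2 and 32.7 at germ cell markers, 15.2 and 11.0 at supporting cell markers, 12.5 and 11.1 at interstitial markers, 4.82 and 4.38 at endothelial markers, and 57.4 and 54.6 at the 1 blood cell marker with such a peak (Gata2WT first, as in every pair of values from here on). Over all genes with a gene-end peak the median was 45.1 and 37.0, above the medians of all these marker groups but blood. Markers of supporting cells, interstitial cells and endothelium thus had gene-end peaks about as often as genes at large. What part other cells have in the peaks at respiratory chain genes was not tested.

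The sequences below show what lay under a strong gene-end peak of each complex. They are start regions, from 200 bases before to the first 30 bases after the annotated start site. Each belongs to the member with the strongest gene-end peak in the Gata2WT list. Only members with a start site in the RefSeq promoter table (GRCm38.p6) were considered. In complex III this left out Uqcrq, whose peak was stronger than that of Uqcr10 but whose start site was not in that table. Ndufb2, a small subunit of complex I, starts at base 39592565 of chromosome 6 on the plus strand, and the stretch is chr6:39592365-39592594. Sdhd, a membrane anchor of complex II, is shown at chr9:50603820-50604049, Uqcr10, a small subunit of complex III, at chr11:4704315-4704544, Ndufa4 at chr6:11907421-11907650, and Atp5g1, which encodes the c subunit of the rotor ring of ATP synthase, at chr11:96075602-96075831, all 4 on the minus strand. Capitals mark matches to the 8 short motifs searched on both strands, which are given with their letters further on.
Ndufb2: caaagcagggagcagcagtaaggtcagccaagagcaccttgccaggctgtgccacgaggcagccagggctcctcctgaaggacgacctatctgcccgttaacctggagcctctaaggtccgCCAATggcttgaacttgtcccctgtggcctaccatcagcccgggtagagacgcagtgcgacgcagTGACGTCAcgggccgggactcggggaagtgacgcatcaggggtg
Sdhd: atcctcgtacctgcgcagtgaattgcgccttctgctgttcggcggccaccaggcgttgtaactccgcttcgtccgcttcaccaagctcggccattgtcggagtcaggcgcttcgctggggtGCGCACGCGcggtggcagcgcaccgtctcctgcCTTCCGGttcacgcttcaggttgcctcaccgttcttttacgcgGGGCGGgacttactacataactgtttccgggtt
Uqcr10: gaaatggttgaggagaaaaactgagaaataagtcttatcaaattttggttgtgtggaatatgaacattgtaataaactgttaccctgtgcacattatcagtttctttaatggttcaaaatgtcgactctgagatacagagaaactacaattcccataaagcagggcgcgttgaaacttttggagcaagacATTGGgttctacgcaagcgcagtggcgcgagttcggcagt
Ndufa4: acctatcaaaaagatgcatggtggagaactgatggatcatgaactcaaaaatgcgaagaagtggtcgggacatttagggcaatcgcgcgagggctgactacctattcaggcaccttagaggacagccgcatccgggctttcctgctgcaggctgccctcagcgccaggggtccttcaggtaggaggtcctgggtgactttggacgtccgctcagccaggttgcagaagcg
Atp5g1: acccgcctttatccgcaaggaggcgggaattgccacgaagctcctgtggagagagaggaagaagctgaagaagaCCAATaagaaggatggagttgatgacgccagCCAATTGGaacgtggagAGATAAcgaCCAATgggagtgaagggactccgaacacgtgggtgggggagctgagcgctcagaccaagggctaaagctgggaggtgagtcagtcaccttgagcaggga

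These 5 stretches had little in common in the letters marked. That of Ndufb2 held TGACGTCA, the cyclic AMP response element, 14 bases before the start and a CCAAT box 79 bases before it. That of Sdhd held an NRF1 match 79 bases before the start, an ETS match 46 bases before it and an SP1 match 3 bases before it. Uqcr10 had only a reversed CCAAT box, 10 bases before the start. Atp5g1 had 4 matches to the CCAAT box, 126, 95, 92 and 69 bases before the start (that at 92 reversed), and a GATA match, AGATAA, 78 bases before it. Ndufa4 had no match to any of the 8.

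For contrast, the same stretch is shown for the 3 members with no peak in either list whose start site was in the table. Cox7b2, a testis form of complex IV, is at chr5:71548176-71548405 and Cox8b, a heart and muscle form, at chr7:140900417-140900646, both on the minus strand; Ndufb4b is at chr19:25032908-25033137 on the plus strand.
Cox7b2: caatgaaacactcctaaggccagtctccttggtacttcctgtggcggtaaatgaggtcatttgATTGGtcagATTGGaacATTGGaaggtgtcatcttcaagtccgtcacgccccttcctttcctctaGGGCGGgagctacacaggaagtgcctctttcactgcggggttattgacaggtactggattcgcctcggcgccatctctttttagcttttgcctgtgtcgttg
Cox8b: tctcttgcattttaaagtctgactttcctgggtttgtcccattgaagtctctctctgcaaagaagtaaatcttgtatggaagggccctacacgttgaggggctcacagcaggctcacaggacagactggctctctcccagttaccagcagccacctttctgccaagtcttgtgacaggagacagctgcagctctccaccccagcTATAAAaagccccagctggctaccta
Ndufb4b: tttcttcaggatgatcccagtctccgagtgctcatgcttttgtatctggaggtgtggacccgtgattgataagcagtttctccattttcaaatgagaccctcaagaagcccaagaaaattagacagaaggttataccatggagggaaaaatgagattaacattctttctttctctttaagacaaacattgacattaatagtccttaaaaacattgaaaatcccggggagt

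The stretches of Cox8b and Ndufb4b were poor in CpG, with 1 and 3 such dinucleotides, against 9 at Cox7b2, 8 at Uqcr10, 10 at Atp5g1, 11 at Ndufa4, 13 at Ndufb2 and 26 at Sdhd. Cox7b2 had 3 reversed CCAAT boxes, 137, 128 and 120 bases before the start, and an SP1 match 72 bases before it. Cox8b had a TATA box match from the base numbered 5 after the start, and Ndufb4b had no match.

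Nearly all members carried open chromatin, and the same members did so in both genotypes. A peak inside the gene or within 1 kb of it was present for 95 of 100 members in the Gata2WT list and for the same 95 in the Gata2cKO list, against 73.7% and 72.7% of all protein-coding genes. A peak at a gene end, that is no more than 1 kb from either border of its RefSeq span, was in both lists for 92 members (92%, 85.0 to 95.9), in Gata2WT alone for 0, in Gata2cKO alone for 0 and in neither for 8. Over all protein-coding genes these shares were 62.8%, 2.29%, 1.3% and 33.6%. Most members had a single peak: in Gata2WT 80 had 1, 12 had 2 and 3 had 3, and in Gata2cKO the numbers were 77, 14 and 4.

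**Figure D1:**
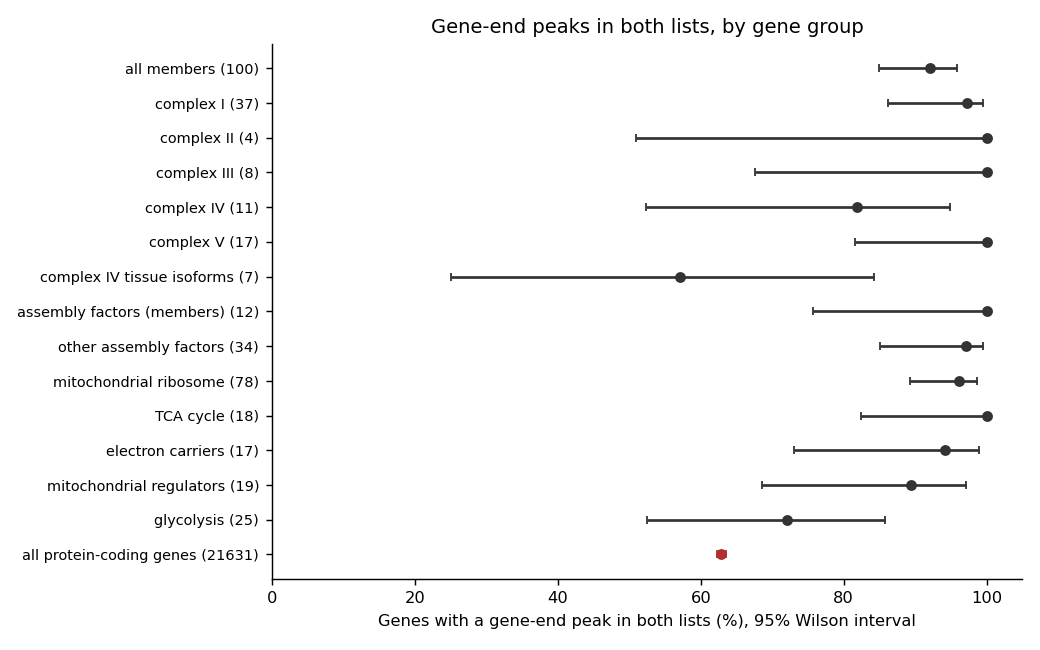
Share of genes with a gene-end peak in both peak lists (x axis, percent; bars are 95% Wilson intervals) for the members by complex and for other gene groups, with the number of genes in brackets. Complexes II, III and V reach 100%, complex IV stands at 81.8%, its tissue isoforms at 57.1% and all protein-coding genes at 62.8%.

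The complexes were alike in this respect. Gene-end peaks in both lists were found for all 4 genes of complex II, all 8 of complex III, all 17 of complex V, 36 of 37 of complex I and 9 of 11 of complex IV. In complex IV the exceptions were Cox5a and Cox7a2. Each had a strong peak inside its annotated span instead, in both lists. Cox5a had chr9:57520892-57521879 in Gata2WT, with a −log10 q of 74.3 and 68.4, and Cox7a2 had chr9:79759462-79760293, with 68.7 and 61.2; in both genes this peak covered a start site of the promoter table, which lies inside the span that RefSeq gives the gene. Counting peaks inside genes, every one of the 77 common subunit genes had at least 1 peak in each list.

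In complex I, the entry point for electrons from NADH, the strongest gene-end peak belonged to Ndufb2 in both lists, followed by Ndufb5 in Gata2WT and by Ndufa11 in Gata2cKO, all accessory subunits of the membrane arm. Ndufb2 had chr6:39592155-39593106 in Gata2WT, with a −log10 q of 136 and 108 and a summit pileup of 165 and 129 fragments. Ndufb5 had 98.5 and 90.4, with a peak that also reached the end of Mrpl47, a gene of the mitochondrial ribosome, and Ndufa11 had 97.1 and 101. The weakest gene-end peak was that of Ndufb10 in Gata2WT, with 20.5 and 18.7, and that of Ndufc2 in Gata2cKO, with 21.7 and 15.2. Ndufv1, which binds NADH, had 72.9 and 89.5, and Ndufs1, the largest iron-sulfur subunit, 42.0 and 32.2. The 37 genes spanned 20.5 to 136 in Gata2WT, with a median of 60.7, and 15.2 to 108 in Gata2cKO, with a median of 44.2, so the genes of this complex differed among themselves far more than the medians of the complexes did.

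Complex II, the succinate dehydrogenase that also serves the citric acid cycle, had 4 peaks of middle to high strength. Sdhd had a −log10 q of 83.2 and 45.6, Sdha, the catalytic flavoprotein, 78.4 and 49.9, Sdhc, the other membrane anchor, 65.1 and 64.0, and Sdhb, the iron-sulfur subunit, 40.8 and 47.7. The order of the 4 thus differed between the lists. Sdhd shared its peak with the ends of Timm8b, a mitochondrial import gene, and Nkapd1.

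In complex III, which passes electrons to cytochrome c, Uqcrq had a peak of 193 and 153 fragments with a −log10 q of 128 and 102; this peak, chr11:53430399-53431528 in Gata2WT, also reached the end of Gdf9, the gene of an oocyte growth factor. Uqcr10 had 98.0 and 81.7. Uqcrfs1, the Rieske iron-sulfur protein, had 74.5 and 45.1, the core subunits Uqcrc1 and Uqcrc2 had 67.8 and 37.2 and 68.3 and 48.0, and the weakest, Uqcr11, had 26.6 and 25.8. Uqcr11 stood apart from the other 7, which lay between 67.8 and 128 in the Gata2WT list.

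In complex IV, cytochrome c oxidase, the strongest peak was that of Ndufa4 in Gata2WT, with a −log10 q of 120 and 71.7, and that of Cox8a in Gata2cKO, with 94.5 and 80.3. Cox7c, second in Gata2cKO, had 78.4 and 72.6, Cox5b 85.2 and 53.2, and Cox4i1 51.4 and 26.1. The weakest in Gata2WT was Cox7b, one of the 3 X-linked members, with 26.3 and 20.6, and the weakest in Gata2cKO was Cox6c, with 39.6 and 15.3. The other X-linked members, Ndufa1 and Ndufb11 of complex I, had 34.3 and 32.8 and 56.2 and 61.6. All 3 X-linked members were thus open at a gene end in both lists (100%, 43.9 to 100). The share was 46.1% over all 966 X-linked protein-coding genes, which lies inside that interval.

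Complex V held the strongest peak of all members. Atp5g1 had chr11:96075375-96076359 in Gata2WT, with a −log10 q of 164 and 140, a fold enrichment of 14.7 and 14.9 and a pileup of 210 and 178 fragments, above 99.4% of all genes with a gene-end peak in the first list and 99.7% in the second. Atp5g2 and Atp5g3, which encode the same c subunit, had 86.3 and 54.3 and 58.6 and 37.5. Of the subunits of the catalytic head, Atp5b (beta) had 110 and 90.8, Atp5c1 (gamma) 88.2 and 94.6, Atp5e (epsilon) 82.3 and 55.7 and Atp5a1 (alpha) 62.3 and 57.8. The weakest gene-end peak belonged to Atp5d (delta), with 8.57 and 11.2, but its summit lay far before the start sites of the promoter table; the peak over those start sites, chr10:80141921-80142784 in Gata2WT, had 50.3 and 37.3. Of the stalk that holds the head, Atp5pb had 95.8 and 83.7, Atp5j 51.2 and 60.2, Atp5h 48.9 and 44.3, and Atp5o 31.8 and 59.7.

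**Figure D2:**
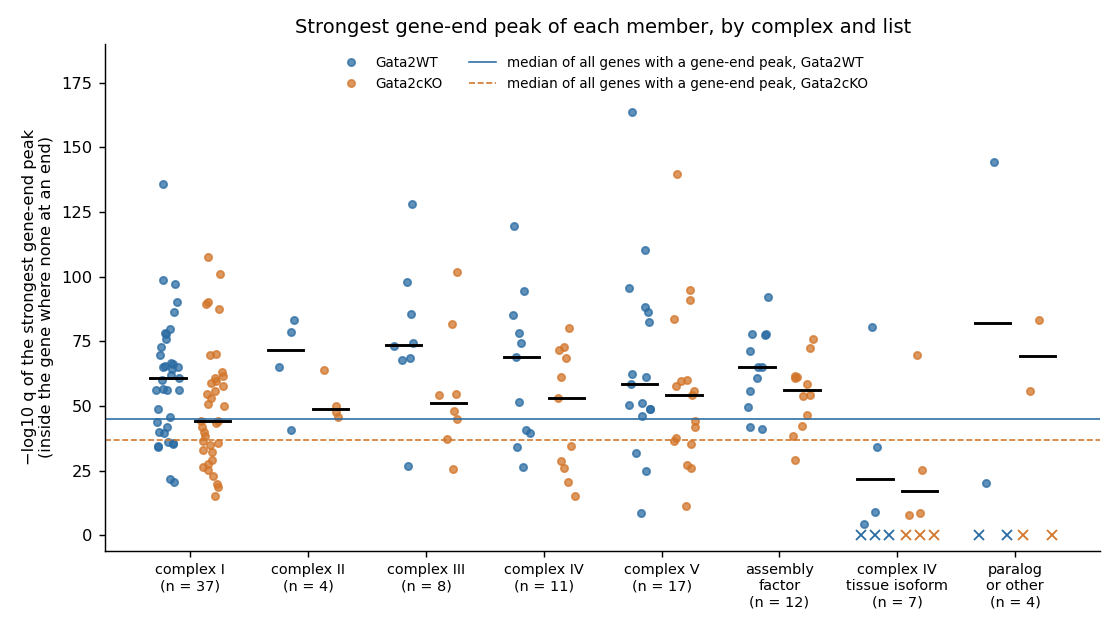
−log10 q (y axis) of each member's strongest gene-end peak, or, where it had none, of its strongest peak inside the gene, by complex; points are genes, blue for the Gata2WT list and orange for the Gata2cKO list, black bars are group medians, coloured lines the medians over all genes with a gene-end peak (45.1 and 37.0), and crosses members with no peak. Medians of the 5 complexes lie between 58.6 and 73.7 in Gata2WT and between 44.2 and 54.3 in Gata2cKO, while tissue isoforms lie lower.

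Set against all genes of the same list, members stood somewhat above the middle. The median −log10 q of the 92 gene-end peaks was 62.1 in Gata2WT and 49.9 in Gata2cKO, against 45.1 and 37.0 over all genes with a gene-end peak. In Gata2WT 30 of 92 ranked above 75% of genes and 5 within the lowest 25%, and in Gata2cKO 27 and 5. The −log10 q was higher in the Gata2WT list at 76 of 92 members (82.6%), and so it was at 79.4% of all 13595 genes with a gene-end peak in both lists. The values were not scaled between the lists, and no difference between genotypes is read from them. At all 92 genes the strongest peaks of both lists overlapped, and their summits lay a median of 24.5 bp apart, with 87 within 100 bp and the farthest 198 bp apart.

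The peaks sat on the start sites. A start site from the promoter table was found for 82 members, with 87 promoters in all, and 83 of the 87 start sites (95.4%, 88.8 to 98.2) lay inside a peak in both lists, against 54% of all 21045 protein-coding promoters. The 4 that did not were those of Cox7b2, Cox8b, Ndufb4b and Ndufa13. Ndufa13, a complex I subunit also known as GRIM-19, had peaks on either side of its start at base 69902020 of chromosome 8, at chr8:69901345-69901933 and chr8:69902690-69903619 in Gata2WT, with a −log10 q of 32.7 and 48.6 in that list and of 22.1 and 36.5 for the matching Gata2cKO peaks. Of 77 members with a start site and a gene-end peak, 71 had the summit within 250 bp of the start in each list, with a median position of 17 bp after the start in Gata2WT and 3 bp after it in Gata2cKO.

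**Figure D3:**
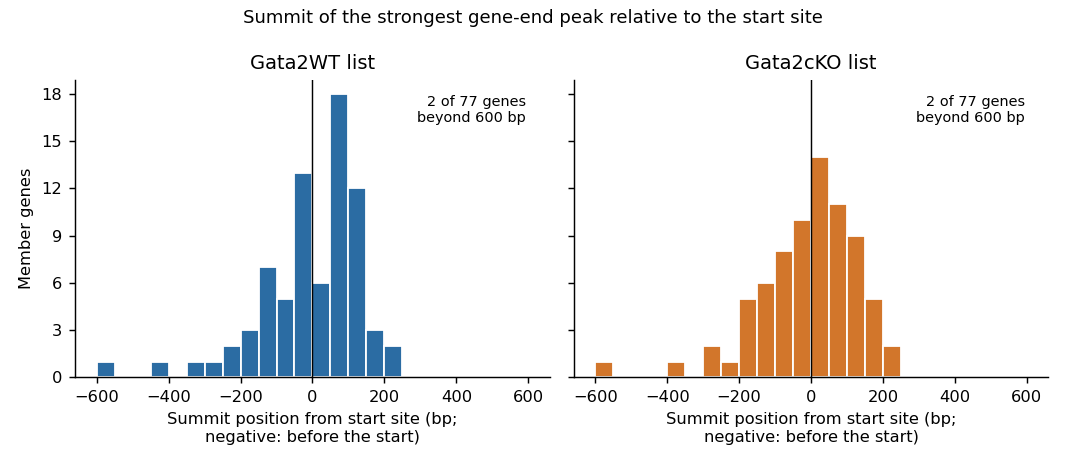
Position of the strongest gene-end peak's summit relative to the nearest annotated start site (x axis, bp, negative before the start) for 77 member genes (y axis, number of genes per 50 bp), one panel per list. Both panels centre on the start site, with 71 of 77 genes within 250 bp; the 2 beyond 600 bp are Atp5d and Ndufa13.

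Many members shared their open start region with a neighbour. The strongest gene-end peak reached the end of another protein-coding gene at 43 of 92 members in each list (46.7%, 36.9 to 56.9), against 25.2% of 14091 genes in Gata2WT and 25.4% of 13877 in Gata2cKO. With the strands of the promoter table, 26 of 87 member promoters (29.9%, 21.3 to 40.2) had the start of another gene on the opposite strand within 1 kb upstream, against 8.05% of all promoters (7.69 to 8.42) and 13.6% (13.0 to 14.2) of the 11371 promoters with the start in a peak of both lists. These 26 belonged to 23 genes, and the 2 starts were a median of 142 bp apart, from 10 to 618 bp. From 1 of its 2 start sites Atp5j, a stalk subunit of ATP synthase, faced Gabpa, the gene of the DNA-binding subunit of GABP, 148 bp away. The other Atp5j start had no opposite start within 1 kb upstream. Other partners with mitochondrial roles were Mrpl47 at Ndufb5 (308 bp) and Timm8b at Sdhd (52 bp). Ndufa7 faced Rps28, a ribosomal protein gene, and Sdhaf2 and Ndufb1 faced Cpsf7 and Cpsf2, genes of messenger RNA 3′ end processing. At such a shared peak the 2 genes' signals cannot be told apart.

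Of the motifs of known regulators, NRF1 and YY1 matches were more frequent in member promoters than in all promoters or in those with peaks. SP1 matches were not. In windows from 250 bases before to 50 after the start, searched on both strands, NRF1 (GCGCANGCG) was found in 25 of 87 member promoters (28.7%, 20.3 to 39.0), against 8.65% of all promoters and 14.9% of those with the start in a peak of both lists. YY1 (AANATGGCG) was found in 12 (13.8%, 8.07 to 22.6), against 3.14% and 5.28%. ETS (CCGGAAG) was found in 22 (25.3%, 17.3 to 35.3), against 11.7% and 19.2%, and its interval held the latter share. At least 1 of these 3 was in 48 of 87 (55.2%, 44.7 to 65.2), against 20.6% and 34.2%. SP1 (GGGCGG) was in 46.0% of member promoters (35.9 to 56.4), against 46.7% of all and 69.7% of the promoters with the start in a peak. The CCAAT box of NF-Y was in 41.4% of member promoters, against 38.5% of all and 39.1% of those with the start in a peak. The TATA box (TATAAA) was in 11.5% (6.36 to 19.9), against 12.7% and 5.71%, and the cyclic AMP response element named above in 4.60% (1.80 to 11.2), against 2.26% and 3.54%. The GATA match, whose letters are also given above, was in 6.90% (3.20 to 14.2), against 9.68% and 5.04%, so the member share lay between the other two and its interval held both. An SP1 or CCAAT match can lie inside or beside another match, and promoters of the same gene share bases. A match describes letters and is not a bound site.

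**Figure D4:**
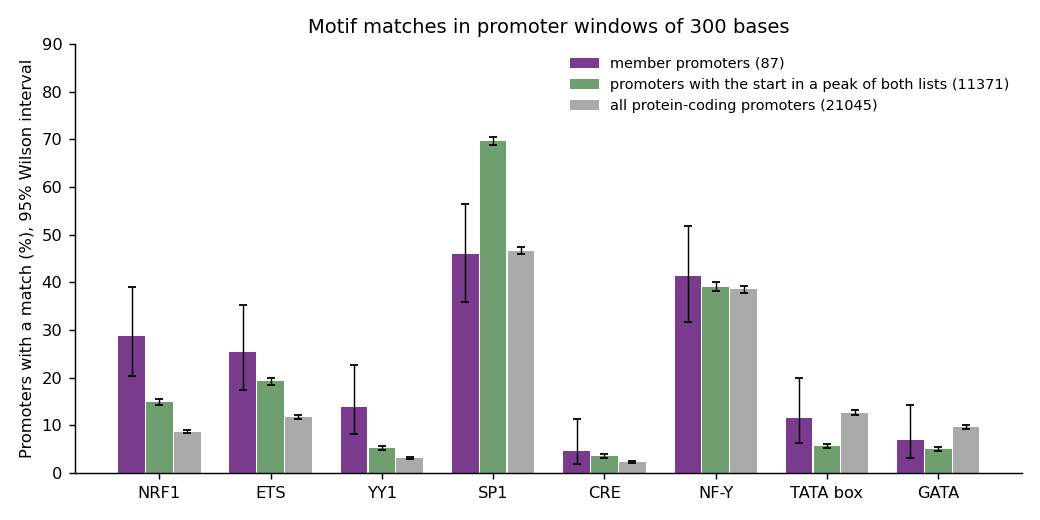
Share of promoters (y axis, percent, from 0; bars with 95% Wilson intervals) with a match to each of 8 motifs (x axis) among 87 member promoters, 11371 promoters with the start in a peak of both lists and all 21045 protein-coding promoters. NRF1 and YY1 shares are highest in members, at 28.7% and 13.8%, and the SP1 share is highest in promoters with the start in a peak, at 69.7%.

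By complex the motif counts rested on few promoters, and the intervals of the NRF1 and YY1 shares all overlapped. For NRF1 they were 14.2 to 42.1% in complex I and 1.99 to 43.5% in complex IV. NRF1 matches were in 9 of 35 promoters of complex I, 2 of 3 of complex II, 2 of 5 of complex III, 7 of 18 of complex V and 4 of 11 of assembly factors, but in 1 of 9 of complex IV, that of Cox6a1. YY1 matches were in 7 of 35 promoters of complex I, 3 of 18 of complex V and 2 of 11 of assembly factors. They were in none of the 3 of complex II, the 5 of complex III and the 9 of complex IV. AGATAA was found at Ndufa12, Ndufc2, Cox7c, Cox7a1, Atp5g1 and Atp5g3, all with a gene-end peak in either list. Of 4 promoters of tissue isoforms, none held NRF1, ETS or YY1.

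The tissue isoforms of complex IV ranged from no peak to a strong one. Of the 7, 3 had no peak in either list: Cox6a2 and Cox8b, heart and skeletal muscle forms, and Cox7b2, a testis form. Their widely expressed counterparts Cox6a1, Cox8a and Cox7b had gene-end peaks with a −log10 q of 40.7 and 34.5, 94.5 and 80.3, and 26.3 and 20.6. Cox4i2, a lung form, had a weak peak of 14 and 19 fragments (4.37 and 7.65), against 83 and 52 fragments at Cox4i1. Cox8c, a testis form, had 18 and 17 fragments (9.11 and 8.70). Cox7a1, a muscle form, reached 34.0 and 25.4, below its counterpart Cox7a2. The exception was Cox6b2, a testis form, whose peak had 135 and 120 fragments and a −log10 q of 80.7 and 69.8, against 51 and 44 fragments and 34.1 and 28.7 at Cox6b1. This peak, chr7:4752029-4753425 in Gata2WT, covered the Cox6b2 start site, and it also reached the end of Fam71e2. Absence from a list means only that no peak there passed the peak caller's cutoff.

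**Figure D5:**
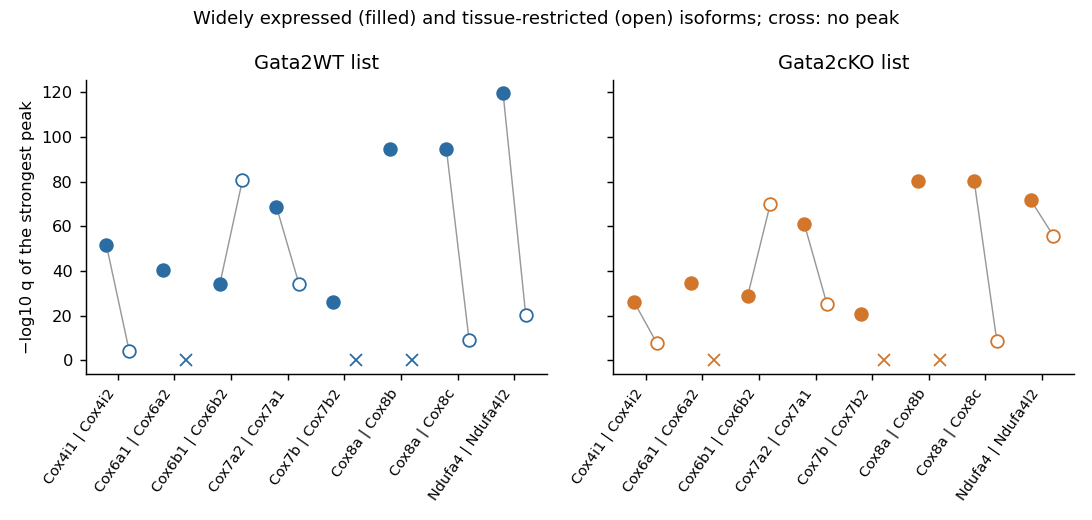
−log10 q (y axis) of the strongest gene-end peak of widely expressed (filled) and tissue-restricted (open) isoforms, in pairs along the x axis and one panel per list (Cox7a2 by its peak inside the gene); crosses mark genes with no peak. The tissue-restricted isoform is lower or has no peak in every pair except Cox6b1 and Cox6b2.

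The 4 other members split as well. Cox7a2l had the second strongest peak of all members in the Gata2WT list, with a −log10 q of 144 there and 83.3 in Gata2cKO. Ndufa4l2, known to be induced by low oxygen, had 20.3 and 55.6, with 56 and 94 fragments, in a peak that also reached the end of Stac3, a muscle gene. Ndufb4b and Ndufb4c, which span 471 and 485 bases, had no peak, while Ndufb4 had 35.4 and 20.0. The 12 assembly factors each had a gene-end peak in either list, from 41.1 at Sdhaf4 to 92.2 at Ndufaf8 in Gata2WT and from 29.1 at Ndufaf1 to 75.9 at Ndufaf8 in Gata2cKO.

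Single-list peaks at members were few, weak and mostly away from the start. Of the 113 peaks that members had in Gata2WT, 5 were missing from the other list (4.42%, 1.90 to 9.94), and so were 9 of their 117 peaks in Gata2cKO (7.69%, 4.10 to 14.0). The intervals of these 2 member shares overlap. Among all peaks in or within 1 kb of protein-coding genes the shares were 24.8% and 17.1%. Gene-end peaks were 14419 of 33484 and 14002 of 30444 of those peaks, but 100 of 113 and 100 of 117 of the member peaks. Among peaks at gene ends the shares were 7.17% and 4.51%. At the gene ends of members they were 2 of 100 in each list, with an interval that held 4.51% but not 7.17%. Of the other member peaks, which lay inside genes, 3 of 13 (23.1%, 8.18 to 50.3) and 7 of 17 (41.2%, 21.6 to 64.0) were single-list. These intervals overlap. Of all gene peaks 8290 of 33484 and 5202 of 30444 were single-list, and of these 1034 and 631 lay at gene ends. Inside peaks of all genes were not counted apart, so no trait of the members is read from the inside shares.

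The WT-only peaks had 8 to 11 fragments at the summit and a −log10 q of 1.37 to 3.31. Ndufs4, an accessory subunit of complex I whose gene is the longest of that complex at 100.3 kb, had 2 inside the gene, at chr13:114298063-114298393 and chr13:114333988-114334307. Ndufv2, an iron-sulfur subunit, had 1 inside the gene with 2.62. Ndufs5 and Uqcrh had 1 each near the gene end opposite to their start, 5.60 and 9.08 kb from their main peak, with 3.31 and 2.27.

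The cKO-only peaks had 9 to 29 fragments and a −log10 q of 1.06 to 7.13. The strongest was chr19:10502543-10503094 inside Sdhaf2, which attaches the flavin to SDHA, with 17 fragments. Ndufaf7, Ndufaf2 and Ndufaf6, assembly factors of complex I, had 1 each inside the gene, with 5.18, 4.33 and 3.21. Ndufs4 had 1 at chr13:114346586-114346883 (4.38), which made it the only member with single-list peaks in both lists. Atp5c1 (2.45) had 1 inside the gene, and Atp5b (4.21) and Atp5o (1.06) 1 each within 1 kb of the end opposite to their start. None of these 14 peaks was the strongest of its gene, and each lay at least 4.02 kb from it.

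Genes that work beside the respiratory chain mostly looked the same. A gene-end peak was in both lists for all 18 genes of the citric acid cycle and pyruvate dehydrogenase, 33 of 34 other assembly factors, 16 of 17 genes of electron carriers and coenzyme Q synthesis, 17 of 19 regulators of mitochondrial genes, among them Nrf1, Gabpa and Yy1, and 75 of 78 genes of the mitochondrial ribosome. In these 5 groups, Mrps23 was the only gene whose gene ends differed between the lists, with a peak in Gata2WT (4.53). Across all 21631 protein-coding genes, gene ends were marked by both lists at 62.8%, by Gata2WT alone at 2.29% and by Gata2cKO alone at 1.3%. Whether these groups differed from all genes in the share marked by a single list was not tested. Glycolytic genes were the more mixed group, with 18 of 25 in both lists, Hk3 in Gata2WT alone (3.37), Hk1 and Ldhc in Gata2cKO alone (1.82 and 1.20) and 4 in neither. Of these, Ldha had a peak inside the gene in both lists, while Pgam2, a muscle form, and Pgk2, a testis form, had no peak in either.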

How the data were processed

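ATAC-seq data of 4 samples were used, 2 Gata2WT and 2 Gata2cKO, grouped by their labelled genotype. The submitters' processing notes name MACS2 2.2.6, bedtools 2.29.2, Bowtie2 2.3.5.1, Trimmomatic 0.39, Picard 2.23.0 and SAMtools, and the build GRCm38 (mm10). Their settings, any Tn5 read shift and the way replicates were combined: not given in the sources used here. As deposited, each list holds a fold enrichment (a ratio of summit pileup to local background), a −log10 p, a −log10 q and a score per peak, as the authors' peak caller gave them; they are not scaled between lists. The smallest deposited −log10 p was 3.00 in both lists.

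Rows with the same interval became 1 peak, keeping the highest summit (58357 rows to 49394 peaks in Gata2WT, 52236 to 44139 in Gata2cKO, autosomes and X). Summit pileup and background were solved from fold enrichment and −log10 p, and a whole pileup was found within 0.001 for 100% of peaks; a fragment is whatever unit the peak caller piled up. An overlap of 1 bp counted as shared. Genes and start sites came from RefSeq tables (GRCm38.p6), which give no exons or introns; the promoter table held 82 of 100 members. Pileup and overlap steps were tested on simulated data. Python 3.11.15 with pandas 2.3.3 and SciPy 1.17.1 was used. Named genes were those with no peak, with single-list peaks, in isoform pairs, on X, and the 2 strongest and the weakest of each complex, with others added after their values were seen. The members and lists were chosen with earlier results of these data known. Some items that the rule would name are not reported here.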

Additional observations from a re-analysis of the deposited data

How the results depend on the processing

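The counts of members held under most alternatives tried, which covered the peak threshold, list length, window, overlap rule, merging of rows, members included and promoter window; 52 of 62 alternative values stayed within 1.5 times the main count or within the interval of the main share. When member peaks below a −log10 q threshold of 5 were left out, 0% in Gata2WT and 1.92% in Gata2cKO lacked a match in the other list. These shares were 4.42% and 7.69% before, and at a threshold of 10 both were 0%. Matches below the threshold still counted here: an Ndufv3 peak of 7.31 in Gata2WT was matched by 1 of 3.02 in Gata2cKO. The shares would be higher with both lists cut. Gene-end status of members was counted with both lists cut. At each of these thresholds 1 member, and not 0, had a gene-end peak in Gata2cKO alone: Cox4i2 at 5 and Atp5d at 10, since their values in the lists lie on either side of the threshold. In the shorter window from 100 bases before the start, fewer promoters had a match by construction: SP1 35.6%, NF-Y 27.6%, TATA box 5.75% and GATA 2.30%, against 46.0%, 41.4%, 11.5% and 6.90%. No paired analysis was possible because each genotype has 1 combined list with no value per replicate. Most single-list peaks stood on 8 to 19 fragments, and the part that sequencing depth has in them was not tested.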

Other observations

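The mitochondrial ribosome, another set of nuclear genes for a mitochondrial machine, had promoter features of similar size. Of its 75 promoters, 34.7% (24.9 to 45.9) had an opposite start within 1 kb upstream, 21.3% held NRF1, 34.7% ETS and 14.7% YY1, and 57.3% (46.1 to 67.9) held at least 1 of these 3, against 29.9%, 28.7%, 25.3%, 13.8% and 55.2% for the respiratory chain members. The difference between these sets was not tested.

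Across the 77 members whose start site lay in their strongest peak in both lists, the number of CpG dinucleotides in the promoter window had a Spearman correlation of 0.11 with the −log10 q in Gata2WT and of 0.13 in Gata2cKO. These points are genes of the same libraries and share depth. The median number of CpG was 20 in member promoters (2 to 44) and 22 in all promoters with the start in a peak of both lists.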
